A study of Drosophila melanogaster with 21 samples.

Results

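RNA recovered with the eGFP-tagged topoisomerase Top3beta (FBgn0026015) from Drosophila embryos was set against the RNA of wild-type embryos, gene by gene, as ranks within each table. The tagged-protein samples came from RNA immunoprecipitation followed by sequencing (RIP). All genes present in the RIP table and in the total RNA table were kept, which gave 2168 of the 17869 FlyBase genes counted in total RNA. In the text, the RIP group is Top3b-eGFP, with 6 embryo samples of genotype Top3b::eGFP, and its comparator is total RNA of 3 wild-type embryo samples. A further 3 RIP samples of genotype Top3b-Y332F::eGFP, a tyrosine to phenylalanine form of the tagged protein, served for a test inside the RIP table. Total RNA of the Top3beta alleles Top3b26, Top3bY332F (here Y332F) and Top3b[delta]RGG (here delRGG), with 3 samples each, served as other references. The labels give no embryo age, no driver of the tagged protein and no state of the untagged gene in the tagged lines. They name poly(A) RNA for the RIP samples and total RNA for the others, so the type of RNA, the tag and the immunoprecipitation cannot be told apart. No untagged immunoprecipitation and no input RNA of the tagged embryos were analysed here. The labels do not say whether samples came from separate collections, so the spread between them may be technical.

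Topoisomerases relieve strand tangling by cutting and rejoining nucleic acid through an active-site tyrosine. Top3beta is known for acting on RNA as well as DNA. In flies and mammals it works with the scaffold protein Tdrd3 and with Fmr1, an RNA-binding regulator of translation, and it is known for roles in neurons. In a RIP experiment, a tagged protein is pulled out of an extract and the RNA that comes with it is sequenced. A gene that stands higher among recovered RNAs than in the RNA of the embryo is over-represented in the recovered fraction. A higher rank does not by itself measure binding.

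The wild-type libraries held 22603070 to 24619219 counts, of which 42.2% to 44.8% fell on the genes ranked. The RIP columns summed to 1414940 to 3429210 normalized units, and the reads behind them are unknown. Gene order was alike within each table, with Spearman's rho across genes of 0.923 to 0.981 between Top3b-eGFP samples and 0.985 to 0.996 between wild-type samples. Of 39 marker genes of embryonic tissues, 38 were found, and all 38 had at least 1 CPM, a count scaled to the library total, in wild type. The 7 muscle markers summed to 268 to 478 CPM in Top3b26, 418 to 655 CPM in Y332F, 380 to 3402 CPM in delRGG and 2231 to 6591 CPM in wild type. The neuron markers summed to 21.2 to 68.6 CPM in Top3b26, 50.5 to 84.5 CPM in Y332F, 60.8 to 291 CPM in delRGG and 240 to 510 CPM in wild type. Markers of these late tissues were thus lower in Top3b26 and Y332F than in wild type and overlapped it in delRGG. They also varied among the wild-type samples. Germ line and maternal markers went the other way, at 1163 to 1289 CPM in wild type. They summed to 1543 to 1631 CPM in Top3b26, 1427 to 1472 CPM in Y332F and 1316 to 1543 CPM in delRGG. In bulk samples, fewer cells of a type and less RNA per cell cannot be told apart.

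Each gene was given a percentile rank from 0 (lowest) to 100 (highest) in each sample, and the rank difference is the mean RIP rank minus the mean wild-type rank, in points. The order of genes in the Top3b-eGFP RIP followed that in wild-type RNA in large part. Spearman's rho between the mean levels was 0.724 across the 2168 genes, which are not independent replicates. For single RIP samples against the wild-type mean it ran from 0.668 to 0.756. A gene was counted as ranked higher when its 6 RIP ranks all lay above its 3 wild-type ranks and the difference was at least 20 points, and as ranked lower in the opposite case. By this rule 310 genes ranked higher in the RIP, or 14.3% of genes, and 340 ranked lower, or 15.7%. The other 1518 genes did neither. Without the 20-point minimum, 716 genes (33%) had all RIP ranks above all wild-type ranks and 671 (31%) had them all below. The median difference over all genes was 0.60 points. Because the tables were normalized separately and on different scales, these counts are descriptions and carry no p-value.

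**Figure D1:**
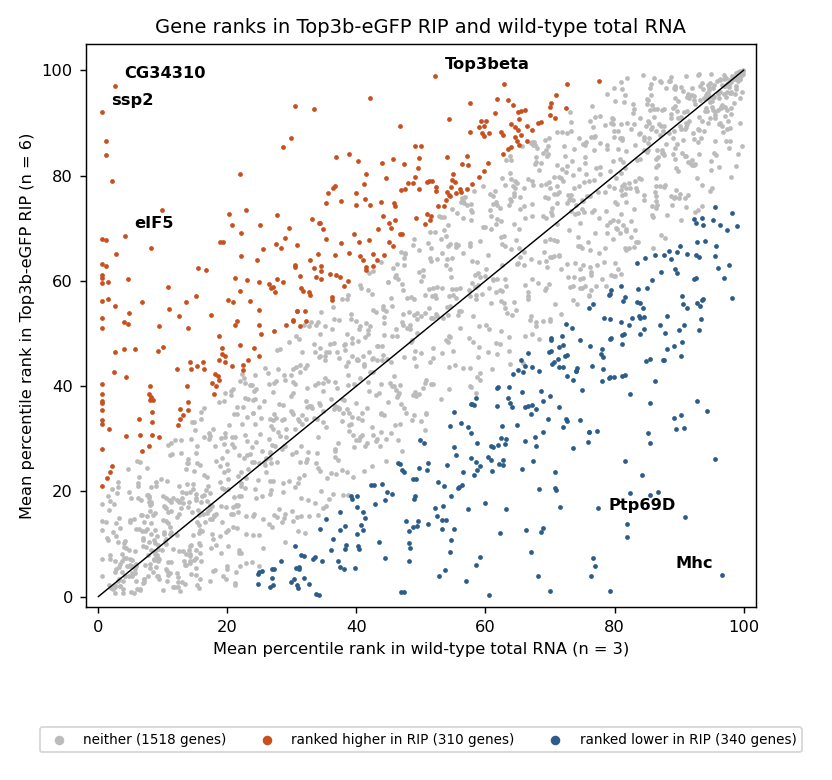
Mean percentile rank of each of 2168 genes in Top3b-eGFP RIP (vertical axis, n = 6) and in wild-type total RNA (horizontal axis, n = 3), with the line of equal rank. The 310 genes ranked higher in the RIP (orange) and the 340 ranked lower (blue) lie on either side of the line, and Top3beta sits near the top at a middling RNA rank.

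Top3beta itself was near the top of the RIP table while its RNA was of middling rank. Its rank in the Top3b-eGFP samples had a lowest value of 98.0, a median of 98.8 and a highest value of 99.7, against 55.1, 54.8 and 46.8 in wild-type RNA. The groups did not overlap, and the difference was 46.6 points. On their own scales, its RIP value was 5409 at lowest, 8420 at the median and 10886 at highest, and its wild-type level was 129, 127 and 98.6 CPM. In total RNA of the Top3b26 allele its mean rank was 13.7. Both annotated transcripts of the gene were listed in the RIP table, and its span overlapped no other gene. Whether the tagged embryos carried more Top3beta RNA than wild type was not measured in these samples.

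Genes of known partners and related enzymes did not share this position. Fmr1 ranked between 74.6 and 88.8 in the RIP, with a median of 77.7, against 83.9, 84.2 and 83.1 in wild-type RNA, so the groups overlapped. Top1, the main DNA-relaxing topoisomerase, ranked 93.2 to 97.1 in the RIP with a median of 96.0, against 98.0, 98.5 and 97.6 in wild-type RNA. Its RIP ranks all lay below its RNA ranks, by 2.2 points on the mean. In the highest of 10 groups of like RNA rank, Top1 stood 20.6 points above the middle in the RIP. Its RNA ranks also lay above the median RNA rank of that group, 94.97. The 20.6 points therefore cannot be told apart from its high RNA rank within the group. Tdrd3, Top2 and Top3alpha were counted in total RNA but had no row in the RIP table. Each gene of that table is listed with at least 2 transcripts, and how the authors chose them is not given in the sources used here.

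Functional classes were described through 37 gene lists, of which 31 had at least 5 ranked members. For each class and sample the median rank of the members was taken. The 6 RIP medians all lay above the 3 wild-type medians in 4 classes and all below in 15, while they overlapped in 12. Lists share members, so the classes are not independent of each other. A class whose members already stand near 100 in RNA cannot move up by much on this scale, and a gene with an RNA rank under 20 cannot rank lower. The counts of members below are to be read against all genes, of which 14.3% ranked higher and 15.7% lower.

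**Figure D2:**
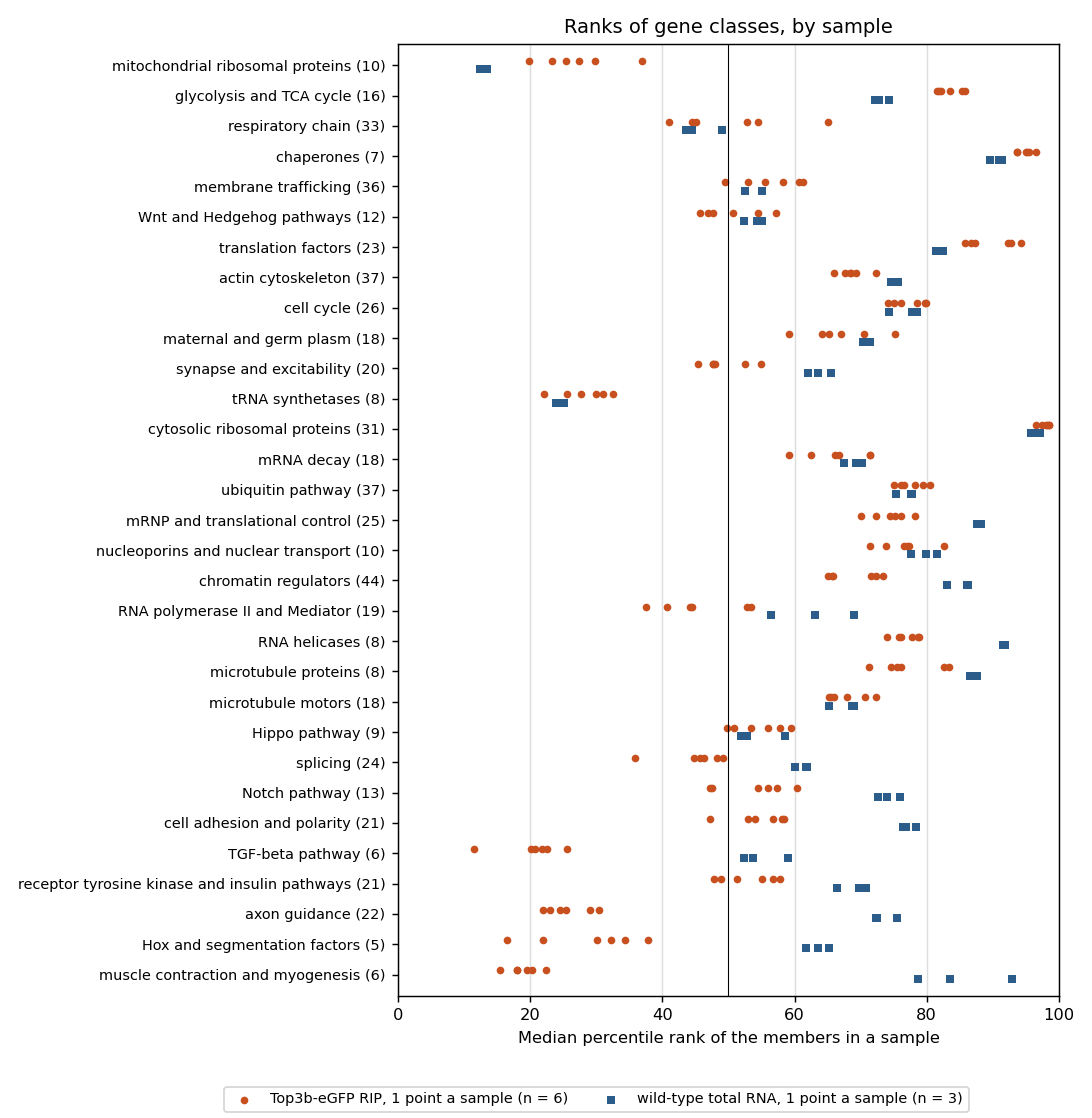
Median percentile rank of the members of each class (number ranked in brackets) in each Top3b-eGFP RIP sample (orange circles, n = 6) and each wild-type total RNA sample (blue squares, n = 3), with classes ordered by their median rank difference. Glycolysis and the TCA cycle stand to the right of their RNA position, the respiratory chain overlaps it, and axon guidance, receptor tyrosine kinase signalling and muscle stand to the left.

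The 4 classes whose medians lay above those of wild-type RNA were glycolysis and the TCA cycle, translation factors, mitochondrial ribosomal proteins and chaperones. With only genes whose annotated transcripts were all listed, the medians of translation factors (8 genes, 0 higher and 1 lower) and of chaperones (3 genes) overlapped those of RNA. The 16 ranked genes of glycolysis and the TCA cycle had a median rank of 81.6 to 85.8 in the RIP samples, against 72.2 to 74.4 in wild-type RNA. The median rank difference of the members was 9.4 points, where all genes had 0.60. Of the 16, 4 ranked higher, none lower and 12 neither, against 14.3% higher and 15.7% lower among all genes. Pglym78, a phosphoglycerate mutase of glycolysis, ranked 88.7 to 95.2 in the RIP with a median of 93.5, against 29.9, 34.99 and 35.4 in wild-type RNA. Its RIP value lay between 1774 and 3194, with a median of 2685, and its wild-type level was 55.9, 68.8 and 71.8 CPM. The groups were far apart, although the gene overlaps another one. The pyruvate dehydrogenase subunits muc and Pdhb differed by 30.5 and 29.8 points, and PCB, which encodes pyruvate carboxylase, by 24.6. The lowest members, Ogdh of the TCA cycle at -18.2 and Idh3b, an isocitrate dehydrogenase subunit, at -14.3, did not reach the minimum.

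The translation factors, 23 genes that start, extend or end protein synthesis, had a median rank of 85.8 to 94.3 in the RIP samples and 81.4 to 82.5 in wild-type RNA. Of them 5 ranked higher (21.7%, against 14.3% of all genes), 2 lower (8.70%, against 15.7%) and 16 neither. The median difference of members was 2.5 points. The initiation factor subunit eIF3m ranked 81.6 to 95.1 in the RIP with a median of 88.2, against 59.4, 61.6 and 60.8 in wild-type RNA. The initiation factor gene eIF5, whose product triggers GTP hydrolysis at the start codon, had the largest difference, at 64.4 points, and overlaps another gene. The subunits eIF2alpha and eIF2Bdelta differed by 21.99 and 22.3 points. The 2 members ranked lower were Paip2, an inhibitor of the poly(A)-binding protein, at -31.5 and eIF4H1, a cofactor of the helicase eIF4A, at -21.9. Paip2 ranked 37.5 to 64.6 in the RIP with a median of 47.9, against 81.4, 81.2 and 81.6 in wild-type RNA. The class therefore held members at both ends, and eIF4A itself was at 99.0 to 99.7 in the RIP and 98.7 to 98.9 in wild-type RNA.

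Cytosolic ribosomal proteins were at the top of both tables. Their 31 ranked members had a median rank of 96.6 to 98.5 in the RIP samples and 95.7 to 97.1 in wild-type RNA, which overlap, and a median difference of 0.24 points. Of them 3 ranked higher (9.68%, against 14.3% of all genes) and none lower. RpS21, of the small subunit, ranked 88.5 to 97.4 in the RIP with a median of 94.8, against 60.3, 60.2 and 70.2 in wild-type RNA. RpL34a and RpL7-like, the other members ranked higher, each have a similar gene copy with which reads could be shared, so their values are uncertain. To lessen the limit at the top, genes were split into 10 groups of like RNA rank and ranked in the RIP within their own group, where 50 is the middle. On that scale the ribosomal proteins had medians of 82.0 to 92.3 in the RIP samples, the translation factors 74.5 to 89.95, glycolysis and the TCA cycle 74.5 to 85.1, and the chaperones 64.0 to 76.4. By that measure 26 of the 31 ribosomal proteins lay above the middle in all 6 RIP samples and by at least 20 points on the mean, where 603 of all 2168 genes (27.8%) did. The RNA medians of this class, 95.7 to 97.1, lay above the median RNA rank of the highest group, 94.97. RNA rank within a group was not adjusted for.

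Mitochondrial genes stood somewhat higher in the RIP than in RNA. The 10 mitochondrial ribosomal proteins had medians of 19.9 to 36.9 in the RIP samples and 12.4 to 13.4 in wild-type RNA. Their median difference was 11.7 points, and 2 of them ranked higher (20%) and none lower. Genes so low in RNA can hardly rank lower. In the lowest and second lowest of the 10 groups of like RNA rank, 28.5% and 17.1% of all genes ranked higher and 0% lower. With only the 6 members that overlap no other gene, 0 ranked higher, though the medians stayed above those of RNA. The highest was mRpL16, at 24.2 to 49.7 in the RIP with a median of 29.0, against 7.2, 9.2 and 8.5 in wild-type RNA. The 33 genes of the respiratory chain had a median difference of 8.6 points, with 10 ranked higher (30.3%) and none lower. Their class medians ran from 40.98 to 65.1 in the RIP samples and 43.6 to 49.1 in wild-type RNA and thus overlapped. ND-AGGG, a subunit of complex I, ranked 47.3 to 68.1 in the RIP with a median of 54.3, against 15.8, 14.6 and 15.01 in wild-type RNA. The complex III subunits UQCR-Q and UQCR-6.4 differed by 40.8 and 37.4 points and COX6B of complex IV by 30.6. The lowest member, ND-51 of complex I, was at -15.6.

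Chaperones, which fold proteins, were the fourth class with RIP medians above the RNA medians, at 93.7 to 96.6 in the RIP and 89.5 to 91.4 in wild-type RNA for 7 genes. None of the 7 reached the 20-point minimum. The largest difference was that of Hsc70-3, the Hsp70 protein of the endoplasmic reticulum, at 9.5 points, with ranks of 97.6 to 98.5 in the RIP and 87.7 to 89.6 in wild-type RNA.

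Membrane trafficking, with 36 ranked genes, had 10 members ranked higher (27.8%, against 14.3% of all genes), 4 lower (11.1%, against 15.7%) and 22 neither. Sec24CD and Sec23, which form the inner coat of COPII vesicles that leave the endoplasmic reticulum, differed by 42.7 and 36.6 points. Sec24CD ranked 84.6 to 93.4 in the RIP with a median of 90.8, against 45.8, 45.4 and 49.1 in wild-type RNA. Sec23 ranked 82.4 to 89.8 in the RIP with a median of 85.4, against 44.97, 47.4 and 55.0 in wild-type RNA. The small GTPase Rab40 was at 41.3 to 52.6 in the RIP against 7.0, 5.4 and 4.8 in wild-type RNA. Among the members ranked lower was Arf1, the GTPase that recruits coats at the Golgi, at 43.7 to 64.5 in the RIP with a median of 57.0, against 92.5, 93.5 and 94.9 in wild-type RNA. Class medians of 49.5 to 61.3 in the RIP and 52.5 to 55.1 in wild-type RNA overlapped.

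The cell cycle list, with 26 genes, had 4 ranked higher (15.4%), a share close to the 14.3% of all genes. It had 1 lower (3.85%, against 15.7%) and 21 neither, and its class medians overlapped. The largest difference was that of stg, the Cdc25 phosphatase that drives entry into mitosis in the early embryo, at 34.5 points. Its ranks were 96.5 to 98.2 in the RIP with a median of 97.5, against 67.6, 62.7 and 58.5 in wild-type RNA. Cdk2, the kinase partner of cyclin E, differed by 34.1 points and endos, a mitotic regulator of protein phosphatase 2A, by 30.1. The lower member was the centriole gene ana1 at -27.0. In the mRNA decay list, with 18 genes, the median difference was -1.0. There 2 genes ranked higher and 2 lower, 11.1% each, against 14.3% and 15.7% of all genes. The 2 higher ones encode subunits of the CCR4-NOT deadenylase. Pop2, a deadenylase, ranked 84.6 to 90.7 in the RIP with a median of 86.5, against 31.8, 30.6 and 27.2 in wild-type RNA, and Rcd-1 ranked 62.6 to 77.7 in the RIP, against 21.2, 19.1 and 21.7 in wild-type RNA. The 2 lower ones were the decapping enzyme DCP2 at -30.4 and twin, which encodes another deadenylase of the same complex, at -26.2. Subunits of one complex were therefore found on both sides.

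Genes of axon guidance were the largest group far down in the RIP. The 22 ranked members had a median rank of 21.98 to 30.4 in the RIP samples, against 72.4 to 75.6 in wild-type RNA. Of the 22, 13 ranked lower (59.1%, against 15.7% of all genes), 1 higher and 8 neither, and the median difference of the members was -25.8 points. Ptp69D, a receptor tyrosine phosphatase of growing axons, ranked 7.4 to 24.1 in the RIP with a median of 14.3, against 90.7, 91.3 and 90.8 in wild-type RNA. Its RIP value lay between 86.6 and 233, with a median of 139, and its wild-type level was 505, 501 and 446 CPM. It stood low in each RIP sample and high in each wild-type sample, with both of its annotated transcripts listed and no overlapping gene. Nrg, a neuronal adhesion molecule of the L1 family, ranked 3.8 to 8.9 in the RIP, against 71.5, 71.3 and 87.0 in wild-type RNA. Sema2a, a secreted semaphorin, ranked 16.4 to 24.7 in the RIP with a median of 19.5, against 85.1, 85.6 and 89.4 in wild-type RNA. Eph, the ephrin receptor, ranked 7.0 to 30.1 in the RIP and 81.0 to 83.5 in wild-type RNA. The member ranked higher was dock, an SH2 and SH3 adaptor at guidance receptors, with ranks of 78.9 to 85.4 in the RIP and a median of 82.9, against 42.0, 38.4 and 40.5 in wild-type RNA.

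Receptor tyrosine kinase and insulin signalling came next among the larger lists, with 21 ranked genes, 11 of them lower, 2 higher and 8 neither. Class medians were 47.8 to 57.7 in the RIP samples and 66.4 to 70.9 in wild-type RNA, and the median difference was -20.6 points. The insulin receptor InR ranked 17.0 to 28.9 in the RIP with a median of 23.8, against 73.5, 66.4 and 72.2 in wild-type RNA. The regulatory PI3-kinase subunit Pi3K21B was at -42.7, the adaptor drk at -39.8 and ed, a cell surface protein that dampens EGF receptor signalling, at -55.5. The 2 members ranked higher were the MAP kinase kinase Dsor1, at 70.2 to 83.6 in the RIP and 48.2 to 51.5 in wild-type RNA, and the TOR partner raptor, at 88.5 to 97.3 in the RIP and 62.8 to 76.7 in wild-type RNA. The MAP kinase gene rl, whose product Dsor1 activates, ranked lower, at 30.9 to 40.6 in the RIP and 65.4 to 69.7 in wild-type RNA.

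Of the other developmental signalling lists, Notch and TGF-beta also stood lower in the RIP, while the class medians of Wnt and Hedgehog and of Hippo overlapped. In the Notch pathway 5 of 13 genes ranked lower and none higher, with class medians of 47.2 to 60.4 in the RIP and 72.7 to 75.99 in wild-type RNA. With only the 4 members whose transcripts were all listed, none ranked lower and the medians overlapped. With only the 4 members that overlap no other gene, none ranked lower either, though the medians stayed below those of RNA. The lowest was kuz, the protease that cleaves the Notch receptor, at 18.3 to 35.7 in the RIP with a median of 30.7, against 86.3, 84.7 and 85.6 in wild-type RNA. Psn, the catalytic subunit of gamma-secretase, was at -41.4 and the ubiquitin ligase neur at -31.7, while the receptor gene N was at -4.3 with overlapping ranks. In the TGF-beta pathway 3 of 6 ranked lower and none higher, among them the receptor gene tkv at -25.5. In the Wnt and Hedgehog pathways 5 of 12 ranked lower and 2 higher. The kinesin-related Hedgehog component cos differed by -35.7 points and the Hedgehog co-receptor gene boi by 21.3. The median difference of this list was 3.00, and -21.7 with only its members that overlap no other gene. In the Hippo pathway the transcriptional effector gene yki was at 36.0 and its DNA-binding partner gene sd at -24.9, with 1 of 9 ranked higher and 2 lower.

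Muscle genes gave the largest class difference, on few members. Of 47 listed genes in total RNA only 6 were in the RIP table. Their median rank was 15.5 to 22.4 in the RIP samples, against 78.6 to 92.9 in wild-type RNA, with 5 ranked lower and none higher. Mhc, muscle myosin heavy chain, ranked 0.58 to 10.6 in the RIP with a median of 1.6, against 93.7, 97.0 and 99.5 in wild-type RNA. Its RIP value lay between 19.97 and 118, with a median of 37.5, and its wild-type level was 630.1, 896 and 1853 CPM. The troponin T gene up ranked 0.046 to 1.8 in the RIP, against 65.1, 78.8 and 93.8 in wild-type RNA, and the paramyosin gene Prm ranked 0.35 to 2.0 in the RIP, against 52.1, 67.6 and 90.2 in wild-type RNA. The RNA ranks of up and Prm spread widely among wild-type samples while their RIP ranks did not, and for Mhc the RIP ranks spread more than the RNA ranks. The sixth member, SERCA, a calcium pump of the endoplasmic reticulum, was at 95.5 to 98.2 in the RIP and 87.8 to 91.9 in wild-type RNA. For none of the 6 were all annotated transcripts listed in the RIP table.

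Cell adhesion and polarity genes, 21 in number, had 7 ranked lower (33.3%, against 15.7% of all genes), 1 higher (4.76%, against 14.3%) and 13 neither. Class medians were 47.2 to 58.5 in the RIP and 76.4 to 78.4 in wild-type RNA. With only the 5 members whose transcripts were all listed, 1 ranked lower and the medians overlapped those of RNA. The list also holds wde, which is in the chromatin list too and ranked neither way. The scaffold genes dlg1 and scrib, which define the basolateral side of epithelia, differed by -60.6 and -58.8 points. The gene dlg1 ranked 11.7 to 24.7 in the RIP with a median of 15.5, against 79.4, 76.1 and 77.0 in wild-type RNA, and scrib ranked 20.4 to 41.4 in the RIP with a median of 33.2, against 91.2, 90.8 and 90.3 in wild-type RNA. Genes of apical polarity complexes were mixed. Patj ranked lower, at -23.7, while crb at -14.3, sdt at -12.6, par-6 at 6.9 and aPKC at 7.0 did not reach the minimum. Among the 5 ranked Hox and segmentation factors, the homeodomain cofactors hth and exd were at -54.1 and -46.4 and the maternal anterior determinant bcd at -30.0. The gap gene hb went the other way, at 94.0 to 95.1 in the RIP with a median of 94.7, against 61.7, 63.6 and 59.8 in wild-type RNA.

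Nuclear RNA and chromatin classes also stood lower in the RIP. Of 24 splicing genes 10 ranked lower (41.7%), none higher and 14 neither. Class medians were 35.9 to 49.1 in the RIP and 60.0 to 61.9 in wild-type RNA. The splicing regulators ps, heph and Sxl were at -60.2, -43.9 and -44.7, and the highest member, Psi, was at 9.6. Sxl, the switch gene of sex determination, ranked 29.6 to 54.5 in the RIP with a median of 48.1, against 88.4, 89.5 and 93.1 in wild-type RNA. Of 44 chromatin regulators 14 ranked lower (31.8%), 3 higher and 27 neither, with a median difference of -3.7 points. Class medians were 65.1 to 73.4 in the RIP and 83.1 to 86.2 in wild-type RNA. Within groups of like RNA rank the shift was small, with class medians of 42.5 to 47.0 where 50 is the middle. On that scale 16 of the 44 lay lower and 9 higher, where 28.5% of all genes lay lower and 27.8% higher. Nipped-B, which loads cohesin, ranked 23.7 to 48.5 in the RIP with a median of 35.9, against 94.8, 93.6 and 94.6 in wild-type RNA. The histone methyltransferase gene Set1 was at -71.1. The 3 higher members were Trl, which encodes the GAGA factor, at 48.3, the histone demethylase gene Kdm4B at 39.4 and the Polycomb group gene ph-d at 28.2. Reads of ph-d may be shared with its neighbour copy ph-p. In the RNA polymerase II and Mediator list 5 of 19 members ranked lower (26.3%, against 15.7% of all genes) and 2 higher (10.5%, against 14.3%). Among those lower was TAF1B at -26.2, a factor of RNA polymerase I. Within groups of like RNA rank 6 of the 19 lay lower and 3 higher, with class medians of 35.4 to 43.8. Taf1, the largest TFIID subunit, was at -45.4 and the polymerase subunits Polr2B and Polr2I at -39.2 and 26.8.

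Genes for proteins of messenger ribonucleoproteins, a list that includes Fmr1, stood lower by their class medians. The median difference of the members was small, at -3.1 points. Of 25 members 9 ranked lower (36%), 1 higher and 15 neither, and class medians were 69.995 to 78.3 in the RIP and 87.6 to 88.2 in wild-type RNA. Within groups of like RNA rank 10 of the 25 lay lower and 4 higher, with class medians of 36.0 to 49.3. The neuronal RNA-binding protein gene elav was at -46.5 and Unr, a cold-shock domain regulator of translation, at -37.9. Unr ranked 44.3 to 68.9 in the RIP with a median of 53.8, against 94.6, 93.1 and 91.9 in wild-type RNA. Pumilio, a repressor of translation, ranked 95.7 to 98.7 in the RIP and 94.3 to 96.7 in wild-type RNA under its symbol pum. The member ranked higher was Atx2, a partner of the poly(A)-binding protein, at 66.5 to 78.3 in the RIP and 48.0 to 57.2 in wild-type RNA. The RNA helicase list includes mask, a member of the Hippo list that is not a helicase and ranked neither way. In the list 2 of 8 ranked lower, mahe at -26.5 and Gem3 at -21.2. That is 25%, against 15.7% of all genes, and none ranked higher. Within groups of like RNA rank 3 of the 8 lay lower and 3 higher.

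In the synapse and actin lists the class medians lay lower in the RIP while the median difference of the members was slightly above 0. Within groups of like RNA rank, class medians ran from 47.2 to 57.7 for synapse and from 48.4 to 66.1 for actin, on both sides of the middle at 50. Synapse and excitability genes, 20 in number, had 4 ranked higher (20%) and 5 lower (25%), against 14.3% and 15.7% of all genes. Their class medians were 45.5 to 55.0 in the RIP and 62.1 to 65.6 in wild-type RNA, with a median difference of the members of 1.1. The synaptic vesicle priming gene unc-13 ranked 9.6 to 18.2 in the RIP with a median of 13.4, against 80.7, 79.5 and 85.3 in wild-type RNA. The potassium channel gene Irk1 ranked 16.8 to 44.995 in the RIP with a median of 30.2, against 1.7 in each wild-type sample. Actin cytoskeleton genes, 37 in number, had 6 ranked higher (16.2%) and 9 lower (24.3%). Large linker and motor proteins were among the lowest, namely Ank at -42.1, the beta-heavy spectrin gene kst at -41.1 and the myosin gene ck at -39.5. Arpc1, a subunit of the actin-nucleating Arp2/3 complex, was at 41.2, with ranks of 63.6 to 84.3 in the RIP against 36.4, 35.8 and 34.5 in wild-type RNA. The ubiquitin pathway, 37 genes, was even, with 4 higher (10.8%), 5 lower (13.5%) and 28 neither. Its top member was Usp30, a deubiquitinase gene, at 77.6 to 90.3 in the RIP with a median of 86.1, against 29.6, 30.4 and 26.0 in wild-type RNA. Its lowest was the cullin gene Cul2 at -31.8. Of 18 maternal and germ plasm genes 1 ranked higher (5.56%) and 3 lower (16.7%), the lowest being the piRNA pathway gene AGO3 at -47.9. Of 18 microtubule motor genes 2 ranked higher (11.1%) and 3 lower (16.7%), shares near the 14.3% and 15.7% of all genes. Of 10 nucleoporin and transport genes 1 ranked higher (10%) and 3 lower (30%). The 8 ranked tRNA synthetases held none in either direction.

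The 10 genes with the largest positive differences were CG34310, ssp2, Sesn, CG33199, slmo, lmgA, CG8026, eIF5, CG17724 and Arts, from 94.5 down to 62.8 points. CG34310 ranked 96.5 to 97.9 in the RIP with a median of 97.0, against 2.3, 2.7 and 2.7 in wild-type RNA. The gene ssp2 ranked 90.2 to 93.5 in the RIP, with RIP values of 2184 to 2483, and had 0 counts in each wild-type sample. Sesn, a stress-response inhibitor of TOR signalling, ranked 84.1 to 88.9 in the RIP, against 1.2, 1.1 and 1.3 in wild-type RNA, where it had under 1 CPM. The span of each of these 10 genes overlaps at least 1 other RefSeq gene, as do 51.5% of all genes ranked. Of the 10, 7 were under 6 CPM in wild type. How reads that lie in more than 1 gene were counted, and whether strand was used, is not given in the sources used here, so levels of overlapping genes are uncertain in both tables.

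In all, 23 genes had 0 counts in all 3 wild-type samples, and all 23 overlap another gene. Of these, 18 ranked higher in the RIP and 5 did neither. Besides ssp2, lmgA and RpL7-like they included Myb, which ranked 55.1 to 68.8 in the RIP, and PIG-M, which ranked 53.3 to 64.7. A count of 0 does not show that these RNAs were absent from wild-type embryos, since their reads may have been given to the overlapping gene or dropped. The share of overlap in these rankings was not tested.

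The 10 genes with the largest negative differences were Mhc, up, Ptp69D, Gp150, Set1, Bsg, PMCA, Nrg, Prm and unc-13, from -92.6 to -68.2 points. Gp150, a transmembrane glycoprotein gene, ranked 0.30 to 8.1 in the RIP with a median of 3.6, against 71.2, 69.5 and 88.3 in wild-type RNA. Bsg, a basigin-family membrane protein gene, ranked 0.76 to 22.8 in the RIP with a median of 9.0, against 81.1, 80.3 and 84.4 in wild-type RNA. PMCA, a plasma membrane calcium pump, ranked 17.6 to 38.03 in the RIP with a median of 25.4, against 94.7, 95.2 and 97.0 in wild-type RNA. For 9 of the 10 the RIP table listed fewer transcripts than RefSeq annotates, Ptp69D being the exception. Mhc had 2 of 21 transcripts listed, up 2 of 18, Bsg 2 of 10 and Nrg 2 of 9. A sum over the listed transcripts can miss RNA that the count per gene includes.

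**Figure D3:**
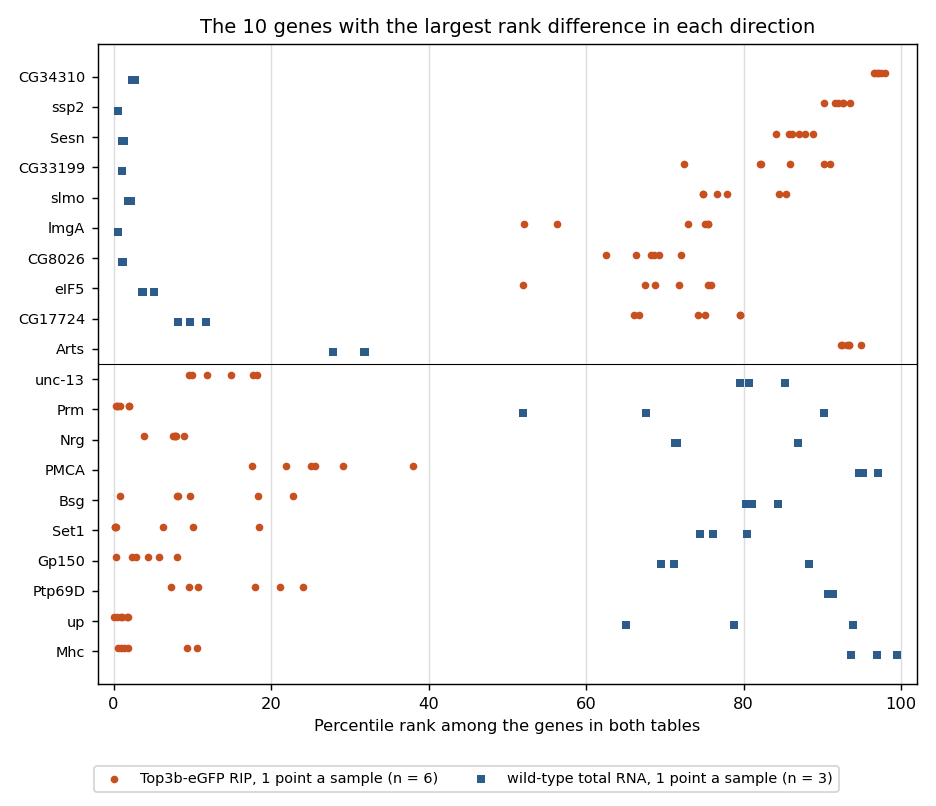
Percentile ranks of the 10 genes with the largest positive (upper) and the 10 with the largest negative (lower) rank difference, with 1 point for each Top3b-eGFP RIP sample (orange, n = 6) and each wild-type total RNA sample (blue, n = 3). RIP and RNA ranks do not overlap for any of the 20 genes, and among wild-type samples the muscle genes Prm and up spread most.

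Gene properties that the ranking did not use differed between the groups of genes. The gene span, from start to end with introns, had a median of 3.45 kb for the genes ranked higher, 10.3 kb for those ranked lower and 4.71 kb for the rest. With genes split into 5 groups by span, 20.4% of the group with the shortest spans ranked higher and 2.31% lower, and in the group with the longest 6.71% ranked higher and 30.8% lower. Spearman's rho of the rank difference across genes was -0.336 with span and -0.210 with the number of RefSeq transcripts. With the wild-type RNA rank, which the ranking did use and which is part of the difference, it was -0.363. Of the 10 groups of like RNA rank, the lowest had 28.5% of genes ranked higher and 0% lower. The highest group had 0% ranked higher and 20.6% lower. These are descriptions, since the points share libraries. All annotated transcripts were listed for 45.2% of the genes ranked higher, 22.1% of those ranked lower and 38.9% of the rest. Among 106 genes with under 1 in 4 of their transcripts listed, 6.60% ranked higher and 34.0% lower. Classes that stood low differed in span, with a median of 36.5 kb for axon guidance and 17.3 kb for muscle, but 5.33 kb for splicing and 4.04 kb for Hox and segmentation factors, against 4.999 kb for all genes. Of the classes that stood high, mitochondrial ribosomal proteins had 1.00 kb, chaperones 2.37 kb, glycolysis and the TCA cycle 4.12 kb and translation factors 4.63 kb. The total RNA counts are not divided by length, whether the RIP values are is not given in the sources used here, and the part of span or of transcript listing in the class differences was not tested.

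**Figure D4:**
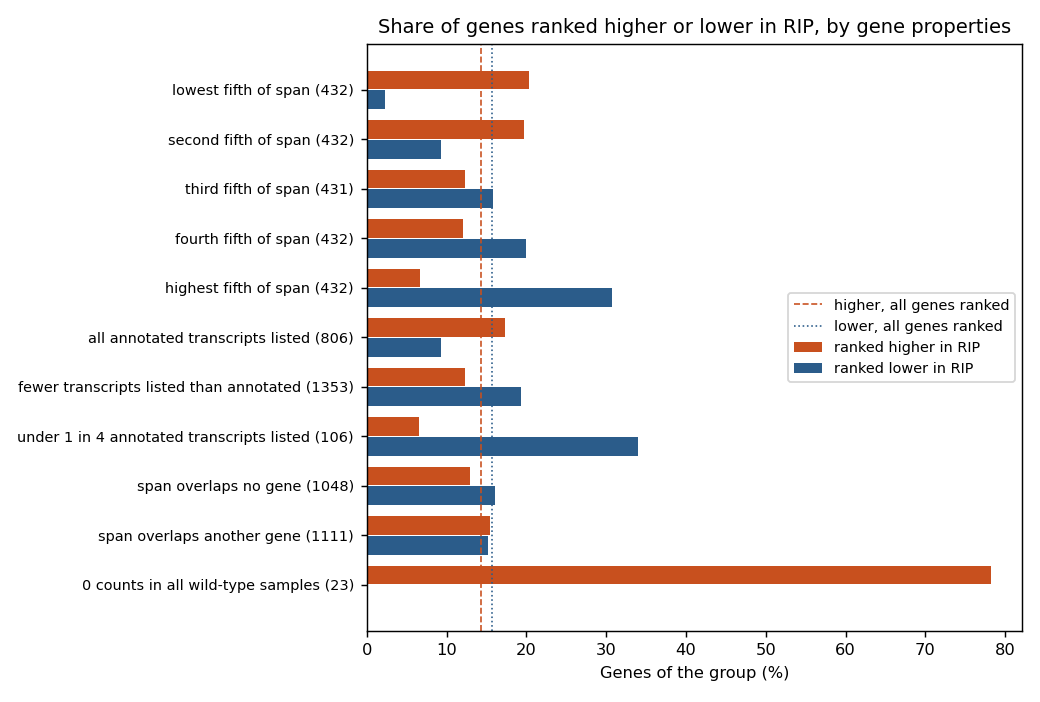
Percent of genes ranked higher (orange) or lower (blue) in the Top3b-eGFP RIP among genes grouped by span, by transcripts listed in the RIP table and by overlap with other genes, with the number of genes in brackets. Dashed and dotted lines mark the shares over all genes, 14.3% and 15.7%, and the share ranked lower grows with span from 2.31% to 30.8%.

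A group of 421 genes had all their annotated transcripts listed and overlapped no other gene, a restriction chosen after the values were seen. Of them 72 ranked higher (17.1%) and 46 lower (10.9%). The largest positive differences in this group were those of Usp30, CG1620, Sply, Rcd-1, Tom7, EloC and Top3beta, from 56.8 to 46.6 points. CG1620 ranked 93.1 to 95.8 in the RIP with a median of 94.9, against 43.0, 44.0 and 39.4 in wild-type RNA. Sply, the sphingosine phosphate lyase gene, ranked 68.4 to 78.7 in the RIP with a median of 71.1, against 18.5, 19.8 and 22.6 in wild-type RNA. Tom7, a subunit of the import pore of the outer mitochondrial membrane, ranked 38.3 to 68.9 in the RIP, against 10.4, 10.8 and 11.3 in wild-type RNA. The largest negative ones were those of Ptp69D, CG10417, CG14073, RAF2, LManII and Mgtor, from -75.8 to -41.6 points. Mgtor, a protein of the nuclear pore basket, ranked 42.6 to 72.9 in the RIP with a median of 56.8, against 98.7, 98.5 and 97.5 in wild-type RNA. The difference in span was smaller here but had the same direction, at a median of 2.50 kb for those ranked higher and 5.18 kb for those ranked lower.

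The order of most classes was alike whichever embryos supplied the total RNA, with muscle as the main exception. The median difference of axon guidance was -26.4 points against Top3b26 RNA, -27.0 against Y332F RNA, -26.4 against delRGG RNA and -25.8 against wild-type RNA. That of glycolysis and the TCA cycle was 11.9, 11.6, 12.1 and 9.4 in the same order of references. The muscle class changed most. Its median difference was -14.1 points against Top3b26, -20.1 against Y332F, -31.7 against delRGG and -53.9 against wild type, and 2, 3, 5 and 5 of its 6 members ranked lower. Mhc had a mean RNA rank of 27.7 in Top3b26, 51.2 in Y332F and 71.5 in delRGG. The summed muscle markers of the genotypes given above include 2 genes of this class, Mhc and up, so they are no separate measure of these steps. Their ranges overlapped among the mutant alleles. The part of embryo age or tissue content in the steps was not tested. The 4 comparisons share the same RIP samples.

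**Figure D5:**
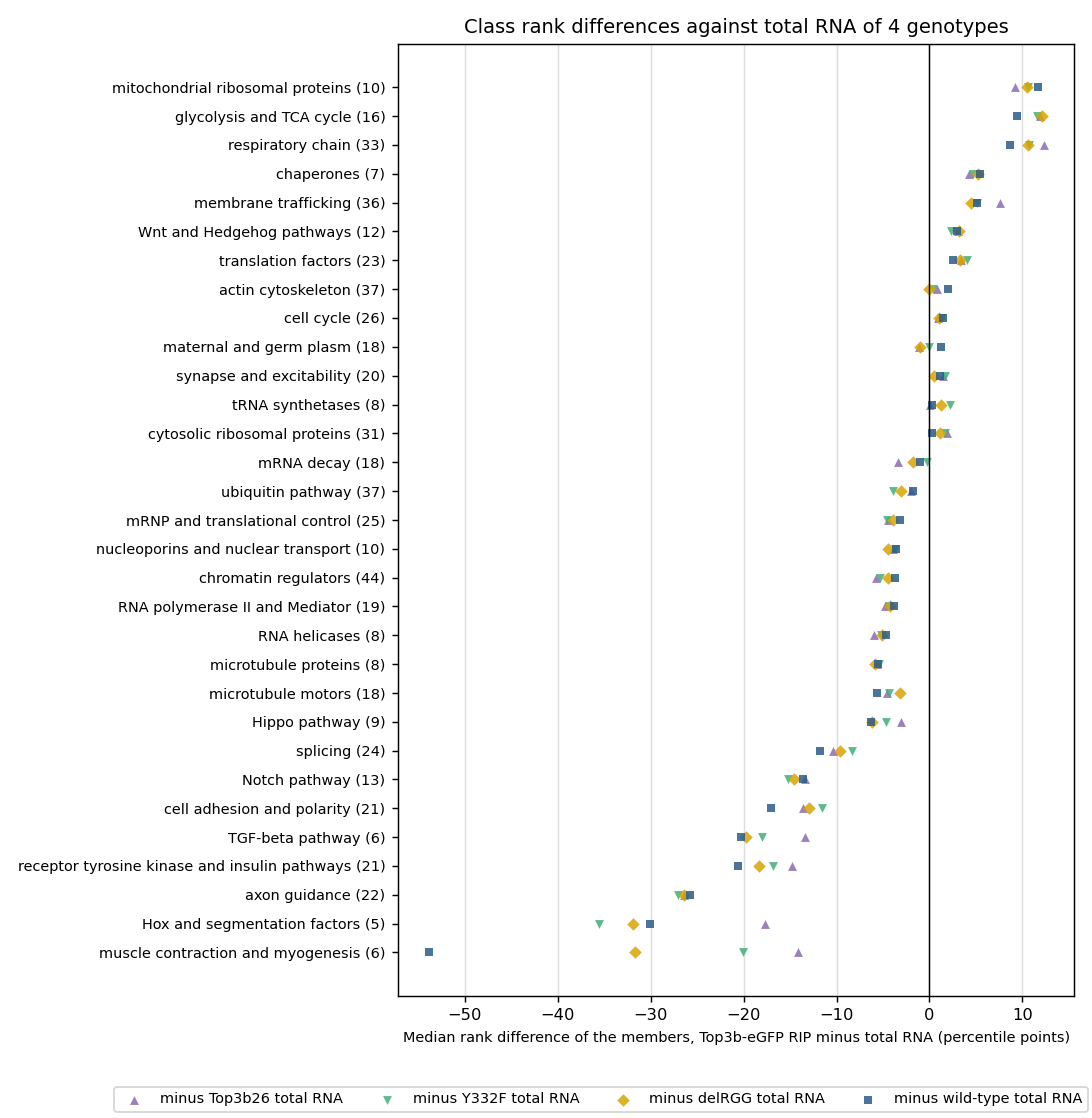
Median rank difference of the members of each class, Top3b-eGFP RIP (n = 6) minus total RNA, with total RNA of Top3b26, Y332F, delRGG or wild type (n = 3 each) as the reference. Most classes differ little between references, while muscle ranges from -14.1 to -53.9 points.

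The RIP of the Y332F form allowed a test within the RIP table, with limma on log2(scaled value + 1) over all 2168 genes and Benjamini-Hochberg adjustment. At an adjusted p under 0.05, 645 genes (29.8%) differed between Y332F form and Top3b-eGFP, 282 higher in the Y332F form (13%) and 363 lower (16.7%). At an unadjusted p under 0.05 the share was 43.4%. The count rests on each of the 3 Y332F samples, since it was 364 without the first, 337 without the second and 329 without the third. It was 25 on the values without scaling. With scaling by column sums the balance turned, to 315 genes higher and 278 lower, so the directions and the class counts that follow hold for the median-ratio scaling. Top3beta itself did not pass. Its rank was 98.8, 98.9 and 98.0 in the Y332F form samples and its log2 fold change, on the log2(value + 1) scale, was -0.21 (SE 0.22, limma adjusted p 0.498).

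Of the 31 cytosolic ribosomal proteins, 8 were higher in the RIP of the Y332F form than in that of Top3b-eGFP and none lower, against 13% and 16.7% of all genes. RpL9 was among them and differed by 1.17 on the log2 scale (SE 0.28, limma adjusted p 0.00955). It ranked 98.6 to 99.2 in the Y332F form and 92.6 to 97.3 in Top3b-eGFP. Of the 23 translation factors 7 were higher and 1 lower, and of the 33 respiratory chain genes 7 were higher and 1 lower. Trafficking genes had 10 higher and 4 lower of 36. Arf1, which ranked lower in the Top3b-eGFP RIP than in RNA, was higher in the Y332F form at 79.2 to 87.7, against 43.7 to 64.5 in Top3b-eGFP, and differed by 1.03 on the log2 scale (SE 0.18, limma adjusted p 0.00401).

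Classes with more genes lower than higher in the Y332F form included chromatin regulators, with 17 of 44 lower and 5 higher, and the ubiquitin pathway, with 14 of 37 lower and 3 higher. Glycolysis and the TCA cycle had 7 of 16 lower and none higher, and nucleoporins 4 of 10 lower and none higher. Of the 21 adhesion and polarity genes 6 were lower and none higher. Of the 22 axon guidance genes 4 were lower, a share close to the 16.7% of all genes, and none higher. The spectraplakin gene shot, a giant linker of actin and microtubules, was at -2.18 on the log2 scale (SE 0.37, limma adjusted p 0.00401). It ranked 12.4 to 16.4 in the Y332F form, against 37.2 to 81.5 in Top3b-eGFP. The spectrin gene kst was at -1.53 (SE 0.23, limma adjusted p 0.00401), with ranks of 12.6 to 15.8 in the Y332F form and 33.5 to 58.7 in Top3b-eGFP. Among the 20 genes with the largest rank differences from wild-type RNA, 4 passed this test. CG33199, eIF5 and Bsg were higher in the Y332F form, by 0.91, 0.69 and 1.62 on the log2 scale (limma adjusted p 0.0100, 0.0182 and 0.0312), and CG17724 was lower, at -0.76 (limma adjusted p 0.00849). Whether the tagged forms were expressed or recovered to the same extent was not measured.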

How the data were processed

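Per the submitters' processing notes, bcl2fastq, HISAT2, featureCounts and DESeq2 were used on these samples; versions, genome build, annotation and strand setting are not given in the sources used here. The total RNA values are raw counts per gene, as the authors deposited them. The RIP values are a signal per transcript that the authors normalized, for 4928 transcripts of 2168 genes (2 to 7 per gene, exactly 2 in 77.6%), and the way of normalizing is not given in the sources used here. Among the RIP values, 3 further columns could not be tied to a label and stayed out. One column of each RIP group was matched through a bare number in the labels.

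RIP values were summed per gene and divided by the median ratio to gene geometric means, with factors of 0.60 to 1.67, then taken as log2(value + 1). Counts were divided by the sample total, as log2(CPM + 1). Genes were ranked within each sample in Python 3.11.15 with pandas 2.3.3 and numpy 2.4.6. The ranks were not tested across tables. Within the RIP table limma 3.58.1 (R 4.3.3, lmFit and eBayes with trend) was run on genes with a mean of at least 10. edgeR 4.0.16 gave TMM factors for an alternative. Figures used matplotlib 3.10.9. Rank and limma steps were tested on simulated data.

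Gene names, spans, overlaps and transcript numbers came from FlyBase and RefSeq tables (Release 6 plus ISO1 MT), which matched 2159 of the 2168 genes. The genes and lists were chosen with earlier results of these data known. Named genes are Top3beta and its listed partners, the 10 largest differences in each direction and the 3 highest and 3 lowest members of each list. Others were chosen after their values were seen: COX6B, crb, drk, eIF2alpha, Eph, N, Patj, PCB, ph-p, Polr2B, pum, rl, sdt, Myb, PIG-M, mask, TAF1B, wde and the genes of the restricted group.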

Additional observations from a re-analysis of the deposited data

Results flagged for a closer look

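Within the 6 Top3b-eGFP samples, 55 sets of values (class medians and the ranks of the named extreme genes) were searched for a sample far from the others by Dixon's criterion, and 3 were found. Chance gives about 1 in 20. The median rank of the splicing genes was 35.9 in Top3b-eGFP sample 6 and 44.8 to 49.1 in the other samples. The rank of eIF5 was 52.1 in Top3b-eGFP sample 5 and 67.5 to 75.8 in the others. The rank of Nrg was 3.81 in Top3b-eGFP sample 6 and 7.59 to 8.93 in the others. All of these values lay on the same side of the wild-type ranks as the rest of their group.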

How the results depend on the processing

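Leaving out 1 sample at a time gave 295 to 319 genes ranked higher, 323 to 352 ranked lower, 19 to 21 classes with separate medians of 31, and a rank agreement of 0.715 to 0.733. With RIP ranks taken within 10 groups of like RNA rank, 603 genes ranked higher and 618 lower. With only genes whose annotated transcripts were all listed (806, ranked anew), 101 ranked higher and 113 lower, and 11 of 19 classes had separate medians. With only genes that overlap no other (1048), 163 ranked higher and 157 lower. Both restrictions and a minimum of 5 CPM were chosen after the data were seen. The rank agreement was 0.764 against Top3b26 RNA, 0.763 against Y332F RNA and 0.690 for the RIP of the Y332F form. Some median differences near 0 changed sign. Actin was at -2.71 with the highest transcript of each gene. Synapse was at -5.68 with the highest transcript, -1.05 with a RIP value of at least 50 and 5 CPM, -0.999 with 5 CPM alone, -0.20 to 1.57 with 1 sample left out (below 0 without wild type replicate 1) and -9.38 in the Y332F form. Microtubule proteins were at 2.18 within groups of like RNA rank. In the Y332F form His4r was at 1.04 and Arf6 at 3.00. Of the other class values 581 stayed within the spread between samples and 116 moved further. In 22 of these the sign differed from the reported one, all for classes with a reported median difference between -5.65 and 3.00. The largest such change was that of the Wnt and Hedgehog pathways, at -21.7 with only genes that overlap no other, and of microtubule motors, at 9.49 with all transcripts listed. Adhesion and polarity had a median difference of -0.1 on the 5 members with all transcripts listed. Among the counts of genes that differ between the Y332F form and Top3b-eGFP, leaving out 1 sample gave 329 to 787, no scaling gave 25, and scaling by column sums called 53.1% of its genes higher in place of 43.7%. A fit with the replicate number as a block called 114 genes. The labels do not tie the numbers, and deviations of samples of the same number correlated at -0.095, -0.111 and 0.021. The cause of these changes was not tested. Division by coding length was planned and was not run. The reads behind RIP values are unknown, which leaves their counting error unknown.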

Other observations

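Lists with fewer than 5 ranked genes were too short for a class statement, and their members are given as values. PCNA, the sliding clamp of DNA replication, ranked 86.5 to 94.0 in the RIP and 53.0 to 55.8 in wild-type RNA, and the DNA end-binding gene Irbp ranked 60.5 to 72.99 in the RIP and 21.7 to 28.1 in wild-type RNA, while Xpc of nucleotide excision repair ranked 68.6 to 79.7 in the RIP and 77.1 to 79.4 in wild-type RNA. Of the proteasome, the ATPase subunit gene Rpt3 ranked 84.1 to 92.9 in the RIP and 57.5 to 61.3 in wild-type RNA, and Rpn13 and Rpn2 differed by 10.8 and 5.3 points.

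Of the histone genes, His3.3A ranked 47.6 to 64.8 in the RIP and 6.6 to 6.9 in wild-type RNA, His3.3B 92.7 to 94.6 in the RIP and 95.6 to 98.0 in wild-type RNA, and His4r 17.8 to 62.9 in the RIP and 68.2 to 73.4 in wild-type RNA. His3.3A and His3.3B encode the same protein and may share reads. Of the cuticle and late epidermis list, grh, a transcription factor of the epidermis, ranked 0.62 to 6.3 in the RIP and 24.3 to 37.2 in wild-type RNA. The growth factor genes Idgf4 and Idgf6 differed by -35.4 and -26.8 points, and mmy, which makes a precursor of chitin and glycans, by 24.9. The only matrix gene ranked, the syndecan gene Sdc, ranked 10.9 to 22.02 in the RIP and 44.4 to 49.6 in wild-type RNA.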
